A study of Mus musculus with 6 samples.

Results

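Traj9, Traj6, Traj4 and Traj2 are joining segments at the constant-region end of the mouse T cell receptor α locus. Their use was counted in TCRα rearrangements of pre-selection DP thymocytes, and a sequence was taken when its J assignment listed 1 of these 4 genes and no other. They were listed in 278411 of the 3675237 sequences, and they are 4 of the 53 Traj genes that occurred in the lists. Traj4 held 103891 of these sequences (37.3%), Traj6 72363 (26.0%), Traj9 55602 (19.97%) and Traj2 46555 (16.7%).

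The study compared Traj usage between WT BALB/c mice and SKG mice, which carry a spontaneous hypomorphic point mutation in Zap70, the kinase that relays the TCR signal. The sorted thymocytes carried CD4 and CD8α but no TCRβ, CD69 or CD5, and cDNA was amplified with a forward primer in Trav9, Trav11 or Trav19 and a reverse primer in the constant region. Each of the 3 amplicons was sequenced as 1 library from WT and 1 from SKG thymi, 6 in all. Both groups descended from a cross of SKG with BALB/cJ mice, after which WT and SKG lines were kept apart for a further generation. The number, age and sex of the mice behind each library are not given in the sources used here. With 1 library per genotype and amplicon, each comparison sets 2 libraries side by side, and genotype and preparation cannot be told apart. The lists hold rearrangements and no marker expression, so the purity of the sort was not analysed here.

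Rearrangement of the α locus brings a Trav segment to a Traj segment and deletes the DNA between them. A first join tends to use Traj segments near the Trav end of the array, and further joins on the same allele replace it with an upstream Trav and a downstream Traj, for as long as the DP cell lives and has not been selected. Segments at the constant-region end therefore mark the last joins that the array allows. Each Traj segment is preceded by a recombination signal, made of a nonamer, a spacer of 12 bases and a heptamer, which the RAG recombinase cuts.

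The recombination signal and coding segment of each gene are shown, since they are the sites at which these joins were made. They were read 5′ to 3′ on the plus strand of the NCBIM37 reference, a C57BL/6 genome, with the nonamer and the heptamer in capitals. Traj9 lies at chr14:54829068-54829125, Traj6 at chr14:54832363-54832424, Traj4 at chr14:54835966-54836028 and Traj2 at chr14:54837511-54837576, each a single annotated joining segment, and the sequences printed start 28 bases earlier with the nonamer.
Traj9: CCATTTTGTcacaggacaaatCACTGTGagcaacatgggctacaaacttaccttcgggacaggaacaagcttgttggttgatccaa
Traj6: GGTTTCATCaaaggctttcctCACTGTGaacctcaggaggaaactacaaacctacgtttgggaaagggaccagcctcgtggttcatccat
Traj4: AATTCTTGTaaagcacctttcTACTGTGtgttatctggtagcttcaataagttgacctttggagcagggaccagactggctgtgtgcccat
Traj2: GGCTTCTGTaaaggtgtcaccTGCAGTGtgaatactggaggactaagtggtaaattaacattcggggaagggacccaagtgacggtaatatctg

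The segments span 58, 62, 63 and 66 bases in that order, and they lie 11.07, 7.77, 4.17 and 2.62 kb before Trac, the constant-region gene. Only Traj1 was annotated beyond Traj2. Traj9 and Traj6 carry the heptamer CACTGTG, which 16 of the 59 annotated Traj segments (27.1%) share. The heptamer of Traj4 matched 6 and that of Traj2 4 of these 7 bases. Of the 9 bases of the nonamer GGTTTTTGT, which 3 segments (5.08%) carry, Traj9 and Traj4 held 6, Traj6 5 and Traj2 7. All 4 segments are followed by GT, the first bases of a splice donor, as are 54 of the 59. The match of letters describes this reference and was not set against use in BALB/c cells.

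Between 249693 and 1587280 sequences were listed per library, after the authors had removed exact duplicates. The 4 segments made up 8.19% of all WT Trav9 sequences and 8.57% of SKG Trav9 sequences. In the Trav11 libraries the values were 13.1% in WT and 14.6% in SKG, and in the Trav19 libraries 0.840% and 2.09%. Apart from these totals, V genes were read 1 at a time, as 6 Trav9 genes each listed alone, Trav11 or Trav11d (called Trav11 here, as the V assignments list both genes), and Trav19. Shares are of productive sequences, those with an in-frame junction and no stop codon, unless another class is named. They rest on 33917 (Trav9d-2, SKG) to 252048 (Trav19, SKG) sequences, so that 3 sequences correspond to 0.00885% to 0.00119%. Sequences of 1 rearrangement are not independent, and Wilson 95% intervals cover counting error only. A spread factor was therefore estimated for each V gene from how unevenly the productive share moved from segment to segment between both libraries. It multiplied the binomial variance by 25.9 (Trav9d-2) to 99.8 (Trav19), and the standard errors (SE) below include it.

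Terminal use differed between V genes, which for Trav11 and Trav19 also means between amplicons. In WT thymocytes the 4 segments together took 16.4% of Trav9d-4, 15.6% of Trav9d-2 and 13.6% of Trav9d-3 sequences. The corresponding shares were 12.6% for Trav11, 6.92% for Trav9-2, 4.16% for Trav9-3, 2.004% for Trav9-4 and 0.782% for Trav19. The Trav9d genes, which end 1234 to 1325 kb upstream of Traj2, thus lay at the top, and Trav19, 372 kb upstream of it, lay at the bottom. Trav9-2 and Trav9-4 lie in between at 626 and 541 kb, and Trav9-3 was not matched by name in the annotation. Trav11 and Trav11d lie 698 and 1393 kb upstream, and the value for Trav11 cannot be divided between them.

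Neighbours in the WT order differed beyond their spread except for Trav9d-4 and Trav9d-2 (difference of 0.842 points, SE 0.886) and Trav9d-3 and Trav11 (1.04 points, SE 1.10). In SKG thymocytes the order was Trav9d-2 at 16.9%, Trav9d-4 at 15.6%, Trav11 at 14.6% and Trav9d-3 at 13.6%. It went on with Trav9-2 at 7.43%, Trav9-3 at 5.29%, Trav9-4 at 3.17% and Trav19 at 2.14%. Neighbours among the first 4 (3 pairs) were not told apart, nor was Trav9-4 told apart from Trav19 (1.03 points, SE 0.602, adjusted quasi-binomial p = 0.135). The largest step of the SKG order lay between Trav9d-3 and Trav9-2 (6.21 points, SE 0.945). Adjusted over all 14 neighbour pairs of both genotypes, 8 passed the quasi-binomial test, and 0 of 14 passed when only sequences with Traj1 to Traj30 were the denominator. The pairs were set by the order of the same shares that were then tested, and no spread between libraries enters. Trav11 and Trav19 came from other amplicons than the Trav9 genes. In pairs that include them, V gene and amplicon or preparation cannot be told apart.

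**Figure D1:**
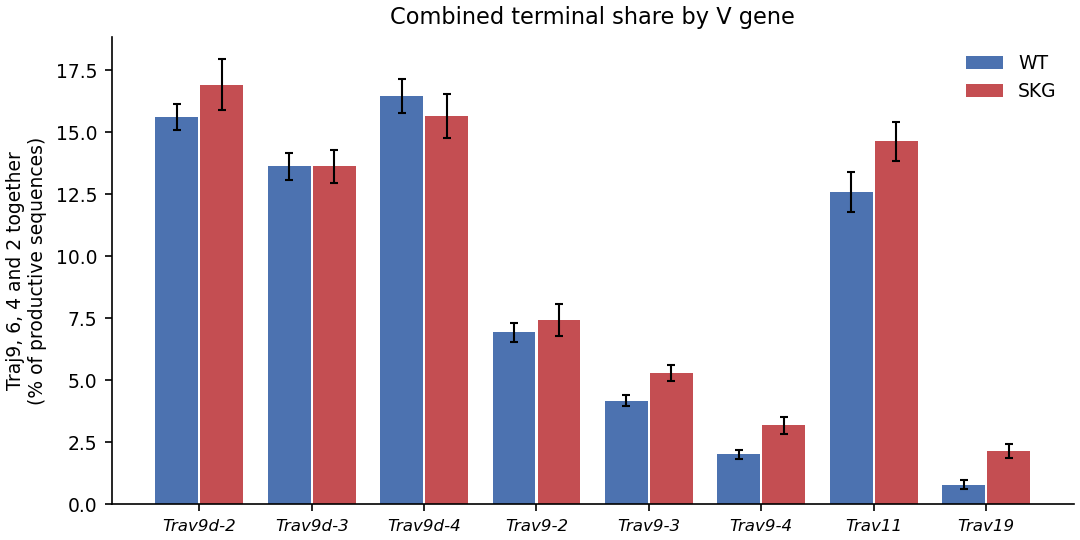
Share of productive sequences that used Traj9, Traj6, Traj4 or Traj2 (y axis, percent) for each V gene (x axis) in the WT and SKG libraries; bars are single libraries and error bars are 1 SE scaled by the spread factor. The Trav9d genes and Trav11 lie at 12.6% to 16.9%, and Trav19 lies at 0.782% in the WT and 2.14% in the SKG library.

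The comparison of genotypes asked whether rearrangement ran further towards the end of the array in SKG cells, in which TCR signals are weaker. The combined share was 0.782% in the WT and 2.14% in the SKG library with Trav19, a ratio of 2.74. It was 2.004% and 3.17% with Trav9-4, and 4.16% and 5.29% with Trav9-3. The SKG share was thus the higher one with the 3 V genes whose WT share was lowest. It was also higher with each of the other V genes except Trav9d-4, though with Trav9d-3 the libraries were nearly equal. These values have no replicate library, so no spread between libraries enters the tests below, whose SE and p are over sequences and compare the libraries sequenced, not the genotypes.

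In that sense the libraries differed with Trav19 by 1.36 points (SE 0.341, adjusted quasi-binomial p = 0.000519 over 8 V genes). They differed with Trav9-4 by 1.17 points (SE 0.378, adjusted quasi-binomial p = 0.00803) and with Trav9-3 by 1.12 points (SE 0.390, adjusted quasi-binomial p = 0.0107). None of the 3 passed in unproductive sequences (1.05, 0.784 and 1.38 points) or with Traj1 to Traj30 as the denominator. Those with Trav9-4 and Trav9-3 also did not pass with the largest spread factor or without Traj4 (0.654 and 0.672 points), nor did that with Trav9-3 without Traj2 (0.782 points).

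With the other V genes the libraries did not pass the test. The Trav11 share was 12.6% in WT and 14.6% in SKG (2.04 points, scaled 95% interval -0.177 to 4.25, adjusted quasi-binomial p = 0.143). Trav9-2 differed by 0.502 points (-0.964 to 1.97) and Trav9d-2 by 1.31 points (-0.959 to 3.58). Trav9d-3 differed by 0.00530 points (-1.67 to 1.69) and Trav9d-4 by -0.798 points (-2.99 to 1.39). On the log odds scale the SKG minus WT difference with Trav19 exceeded that with Trav9d-3 by 1.02 (SE 0.281, adjusted quasi-binomial p = 0.000842) and that with Trav11 by 0.848 (SE 0.288, adjusted quasi-binomial p = 0.00488), over the sequences of single libraries. With Traj1 to Traj30 as the denominator the values were 0.736 and 0.520, and neither passed. Trav11 and Trav9d-3 were not told apart (0.173, SE 0.121, adjusted quasi-binomial p = 0.153).

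To separate the very end of the array from its distal part, the 4 segments were also expressed as a share of sequences with Traj1 to Traj30. With Trav19 the share went from 18.04% in WT to 29.0% in SKG, a difference of 10.9 points (95% interval 1.03 to 20.8). With Trav9-4 it went from 13.1% to 16.5%, with Trav9-3 from 15.8% to 17.9% and with Trav11 from 28.0% to 30.03%. It was lower in SKG with Trav9-2 (23.8% to 19.6%), Trav9d-4 (27.1% to 23.7%) and Trav9d-3 (23.8% to 21.7%), and with Trav9d-2 it was 27.3% and 27.2%. None of the 8 differences passed the quasi-binomial test after adjustment (lowest adjusted p = 0.104), 3 had an unadjusted p under 0.05 (Trav19, Trav9-2 and Trav9d-4), and Fisher's exact test on sequences passed 7 of 8.

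The remaining segments of Traj1 to Traj30 were measured beside the 4. With Trav9-2 they went from 22.2% to 30.4% of productive sequences, 8.18 points (SE 1.29), where the terminal segments differed by 0.502 points. With Trav9-4 these remaining segments went from 13.2% to 16.1%, 2.83 points (SE 0.824), and the terminal segments were at 2.004% and 3.17%. Among the remaining segments, the nearest upstream ones, Traj17 to Traj11, were at 3.98% in WT and 4.02% in SKG with Trav9-4. The sum of the remaining segments was higher in SKG with every V gene, though with Trav11 by 1.76 points only (SE 1.55). With Trav19 the terminal sum and that of Traj17 to Traj11 were higher in SKG, the latter at 1.05% and 2.22%. Within the latter 4 segments were higher in SKG. Traj12 was lower (0.257% in WT and 0.118% in SKG), as was Traj11 (0.137% and 0%). These pairs of changes were not tested against each other.

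The share of each segment is given next in the order of the array, from the V-facing Traj9 to Traj2. Traj9 was used by 4.55% of Trav9d-4, 4.46% of Trav9d-2 and 3.57% of Trav9d-3 sequences in WT, and by 4.14%, 3.72% and 3.01% in SKG. With Trav9-2 it took 2.33% in WT and 1.39% in SKG (-0.945 points, SE 0.369), and with Trav11 1.38% and 1.06%. Traj9 was thus lower in SKG with these 5 V genes among productive sequences. Among unproductive sequences it was higher in SKG with 2 of them, Trav11 (0.719% in WT and 1.81% in SKG) and Trav9d-3 (2.60% and 2.71%). With Trav9-3 its shares were 1.19% and 1.23%, with Trav9-4 0.381% and 0.667%, and with Trav19 0.104% (243 sequences) and 0.424% (1068 sequences). Its log2 ratio of SKG to WT shares ran from -0.75 (Trav9-2) to 2.03 (Trav19), the widest range of the 4 segments.

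Traj6 was used most with Trav11, by 5.92% of WT and 6.64% of SKG sequences. With Trav9d-2 its shares were 3.70% and 3.45%, with Trav9d-4 3.62% and 2.76%, and with Trav9d-3 2.33% and 2.57%. They were 1.20% and 1.40% with Trav9-2, 0.834% and 1.12% with Trav9-3, and 0.349% and 0.485% with Trav9-4. Trav19 used it in 0.165% of WT sequences (386) and 0.580% of SKG sequences (1462). SKG was the higher library with 6 of 8 V genes, the exceptions being Trav9d-2 and Trav9d-4.

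Traj4 was higher in SKG with all 8 V genes among productive sequences. It took 5.81% (WT) and 5.999% (SKG) of Trav9d-3 sequences, where it ranked first among the Traj segments in both libraries, 5.12% and 5.35% with Trav9d-4, and 3.53% and 4.53% with Trav9d-2. With Trav11 it went from 5.04% to 6.60% (1.56 points, SE 0.770), rank 8 in WT and rank 4 in SKG of 36 segments with at least 50 sequences. Smaller shares were found with Trav9-2 (2.11% and 2.77%), Trav9-3 (1.18% and 1.63%), Trav9-4 (0.682% and 1.20%) and Trav19 (0.284% and 0.752%, from 666 and 1895 sequences). Among unproductive sequences the direction was the same with only 3 of 8 V genes, Trav9-3, Trav9-4 and Trav19. With Trav11, for example, 6.80% of WT and 6.68% of SKG unproductive sequences used Traj4.

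Traj2 was also higher in SKG with all 8 V genes, and with 7 of 8 in unproductive sequences too, Trav9d-4 being the exception. Such a direction was not particular to Traj4 and Traj2. Among productive sequences Traj21 and Traj26, for example, were also higher in SKG with each of the 6 Trav9 genes and with Trav11. Its share was 3.90% in WT and 5.21% in SKG with Trav9d-2, where it ranked second in SKG. It was 3.16% and 3.40% with Trav9d-4, 1.91% and 2.05% with Trav9d-3, and 1.28% and 1.86% with Trav9-2. With Trav9-3 it was 0.955% and 1.297%, with Trav9-4 0.592% and 0.823%, with Trav19 0.230% and 0.387%, and with Trav11 0.250% (344 sequences) and 0.328% (501 sequences). The scaled 95% interval of its difference included 0 with all 8 V genes. The interval left out 0 with 4 V genes for Traj4, with 2 for Traj9 and with 1 for Traj6. The same count over all segments is not given here, so these counts are not a result about the members.

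**Figure D2:**
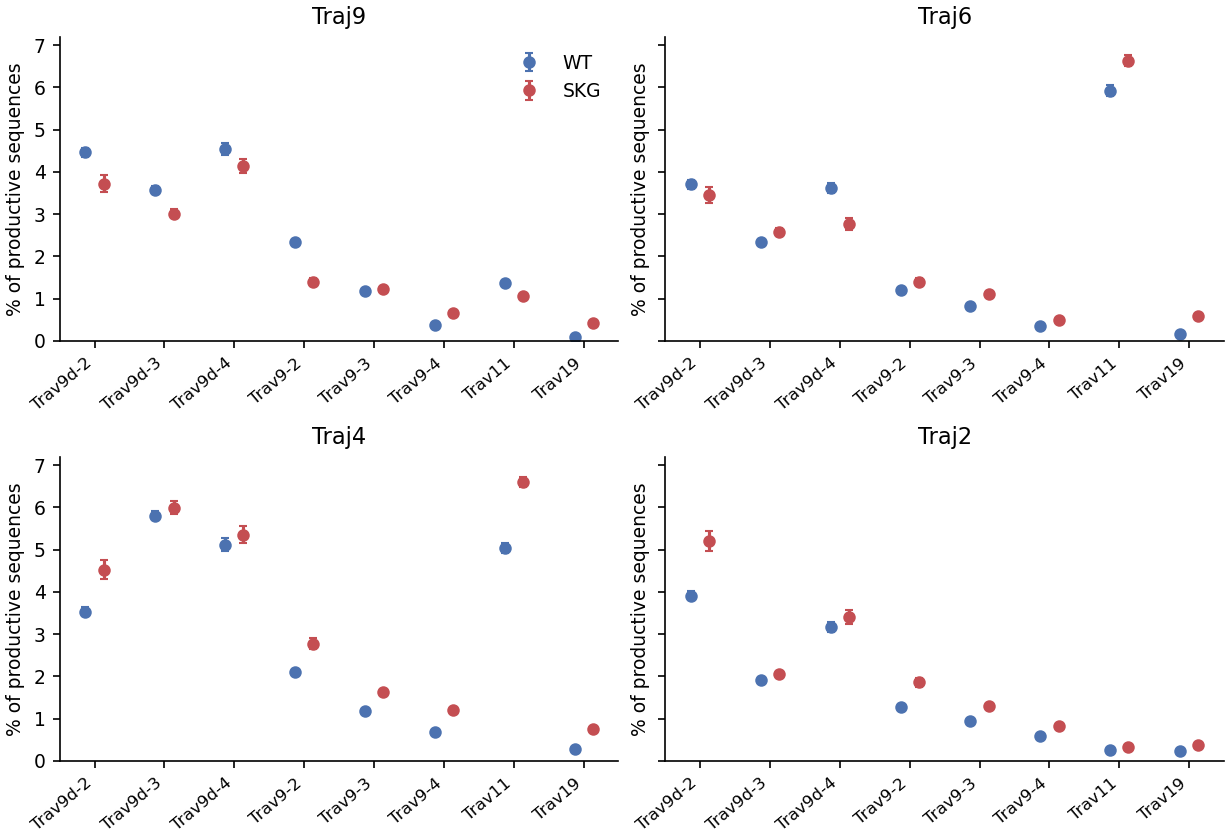
Share of productive sequences (y axis, percent, same scale in the 4 panels) that used Traj9, Traj6, Traj4 or Traj2 with each V gene (x axis); points are single libraries, WT in blue and SKG in red, with 95% Wilson intervals. Traj6 and Traj4 reach 6.64% and 6.60% with SKG Trav11 while Traj2 stays at 0.328%, and the SKG point is above the WT point with all 8 V genes for Traj4 and Traj2.

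In each V gene the members were set beside every Traj segment that had 50 or more sequences in the WT and SKG libraries together. A segment was counted as higher when its SKG share was at least 25% above its WT share, and as lower when it was at most 0.8 of it. Over the 8 V genes, 17 of 32 member and V gene combinations were higher (53.1%), beside 102 of 336 for all segments (30.4%). Lower were 3 of 32 (9.38%), beside 72 of 336 (21.4%). The median log2 ratio was 0.37 for the members, 0.07 for all segments and 0.15 for Traj17 to Traj11, of whose 48 combinations 19 were higher and 5 lower. Such a count is not a test, and at a fold of 1.5 the members higher were 6 and the members lower 1. Those higher were every member with Trav19, and Traj4 and Traj9 with Trav9-4. The share of all segments past a fold of 1.5 is not given here, so that count is not a result about the members.

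The counts were uneven between V genes. With Trav19 all 4 members were higher, beside 42.9% of all its segments, and their median log2 ratio was 1.61. With Trav9-4 all 4 were higher, beside 34.9% of segments, and none lower, beside 20.9%. With Trav9-3 3 of 4 were higher, beside 23.3%, and none lower, beside 14%. Trav11 had 2 of 4 higher (Traj4 and Traj2) beside 30.6%, and 1 of 4 lower (Traj9) beside 25%. Trav9-2 likewise had 2 of 4 higher beside 39.5% and 1 of 4 lower beside 23.3%, and Trav9d-2 had 2 of 4 higher beside 41.9% and none lower beside 25.6%. In these 3 genes the members were split or near the level of all segments. With Trav9d-3 no member passed the fold in either direction, beside 18.6% of segments in each, and with Trav9d-4 1 of 4 was lower (Traj6) beside 23.3% and none was higher beside 11.6%.

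**Figure D3:**
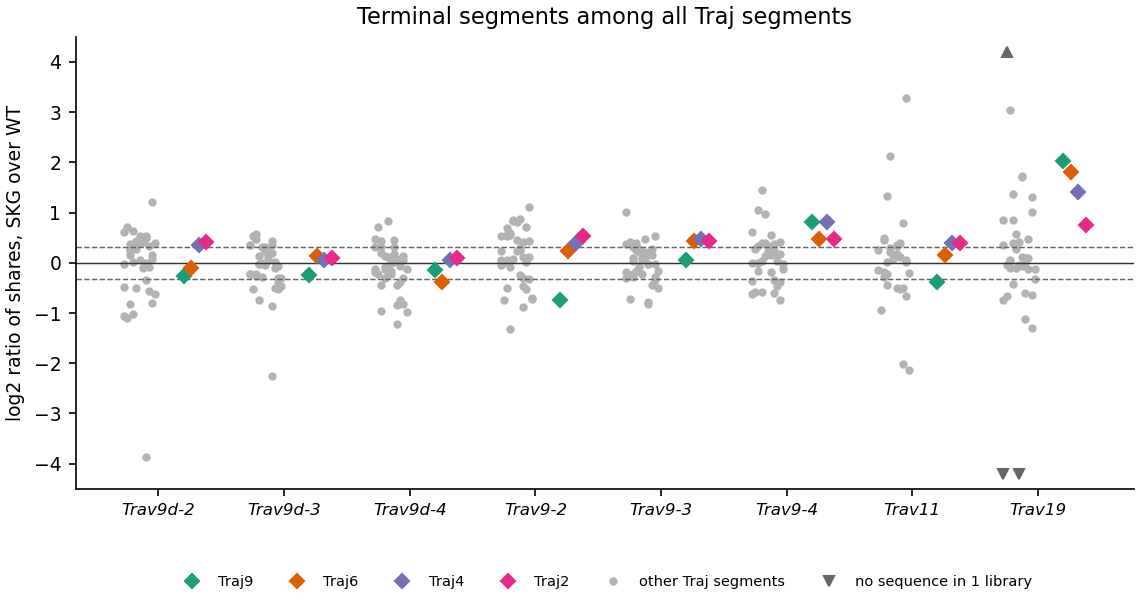
Log2 ratio of SKG to WT share (y axis) of each Traj segment holding 50 or more productive sequences, by V gene (x axis); coloured diamonds are the 4 terminal segments, grey points all others, triangles segments with no sequence in 1 library, and dashed lines mark shares 25% higher in SKG and 0.8 of WT. With Trav19 the diamonds lie between 0.75 and 2.03, and with Trav9d-3 all 4 lie within the dashed lines.

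The 4 segments are not contiguous, and their neighbours differed between V genes. Traj7 and Traj5, which lie on either side of Traj6, were used with every Trav9 gene, Traj7 by 3.43% and Traj5 by 1.49% of WT Trav9d-3 sequences, for example. With Trav11 neither was listed in any of 249465 WT or 274781 SKG sequences of all classes. At that depth 3 sequences would correspond to 0.00120% and 0.00109%. With Trav19 Traj7 was listed in 161 and Traj5 in 62 of 422177 WT sequences, and neither in 390731 SKG sequences. Traj10, Traj8, Traj3 and Traj1 were listed with none of the 8 V genes. The cause of these gaps was not tested.

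Trav11 also divided the 4 segments most unevenly. Traj6 and Traj4 together made up 87.1% of its terminal sequences in WT and 90.5% in SKG. With the other V genes this part ran from 46.4% (Trav9d-2, WT) to 62.9% (Trav9d-3, SKG). Trav11 thus had WT shares of Traj6 and Traj4 above 5% while its shares of Traj9 and Traj2, at 1.38% and 0.250%, were below those of all 3 Trav9d genes.

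**Figure D4:**
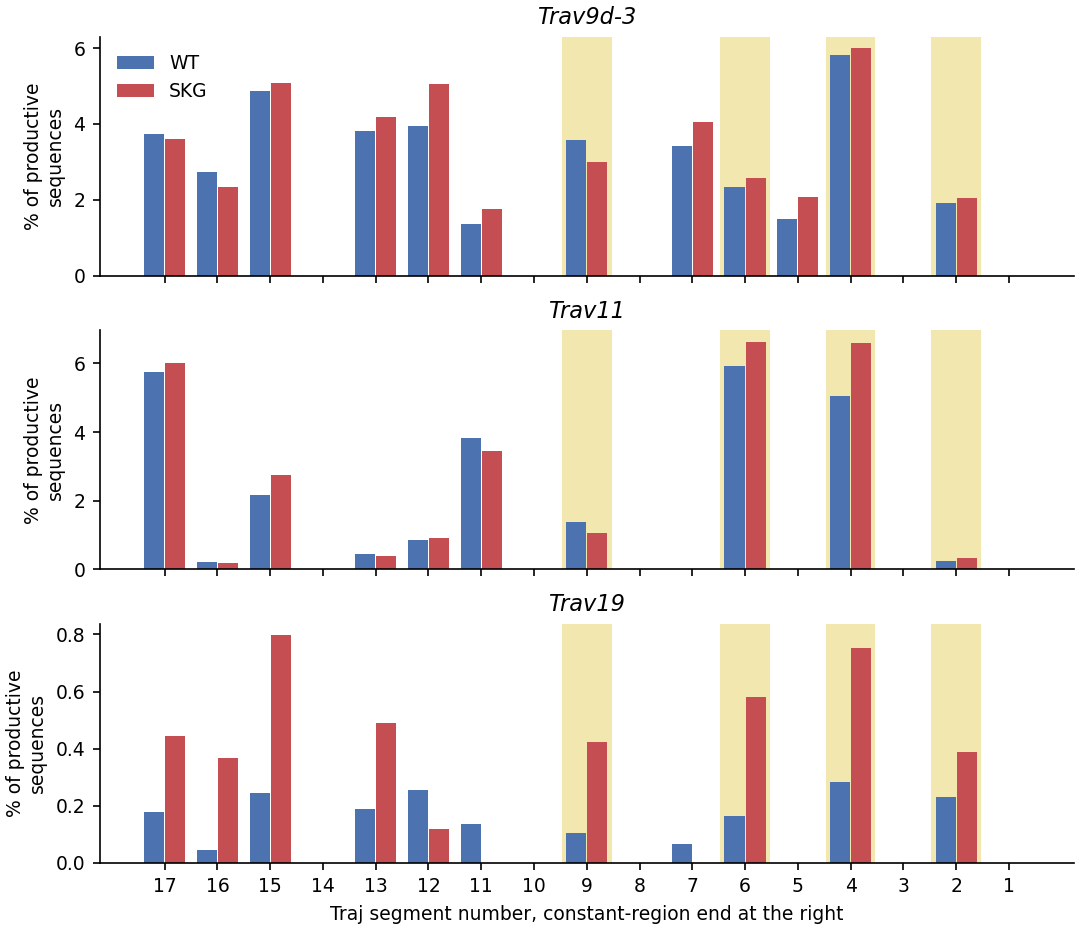
Share of productive sequences (y axis, percent, own scale in each panel) for Traj17 to Traj1 (x axis, constant-region end at the right) with Trav9d-3, Trav11 and Trav19 in the WT and SKG libraries; shaded columns mark the 4 terminal segments. With Trav11 Traj6 and Traj4 stand between segments without sequences, whereas Trav9d-3 used Traj7 and Traj5 beside them.

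Functionality was compared within each library, since unproductive joins cannot be selected as receptors. The combined terminal share differed between productive and unproductive sequences by -1.24 points (Trav11, WT) to 2.85 points (Trav9d-4, SKG). After adjustment 0 of 16 comparisons of V gene and library passed the quasi-binomial test, 1 had an unadjusted p under 0.05 (Trav9-4 in WT, 2.004% of productive and 2.75% of unproductive sequences), and Fisher's exact test passed 11. Among unproductive sequences the terminal share went from 0.764% in WT to 1.82% in SKG with Trav19 and from 4.39% to 5.77% with Trav9-3 (adjusted quasi-binomial p = 0.0726 for both). With Trav9-4 it was 2.75% and 3.53% (adjusted quasi-binomial p = 0.392). The directions were thus those of the productive sequences, with no call.

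Productive sequences made up 56.1% of terminal WT Trav19 and 68.2% of terminal SKG Trav19 sequences, beside 55.5% and 64.5% of all sequences with that gene. For single segments with Trav19 the productive part was 59.9% in WT and 88.0% in SKG for Traj9, 43.2% and 79.8% for Traj6, 78.8% and 61.4% for Traj4, and 48.0% and 54.5% for Traj2. Traj6 with Trav19 was accordingly higher in SKG in productive sequences only, at 0.271% in WT and 0.268% in SKG among unproductive ones. Over all V genes the direction of the SKG minus WT difference was the same in both classes in 20 of 32 combinations, 5 of 8 for Traj9, 5 for Traj6, 3 for Traj4 and 7 for Traj2. The same count over all segments is not given here, so these counts do not set the members apart from other segments.

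Alleles were assigned by IMGT/HighV-QUEST, which classes Traj4 as an open reading frame (ORF) and the other 3 segments as functional. Every Traj6 and every Traj4 sequence listed the first allele (TRAJ6*01 and TRAJ4*01). Of Traj9 sequences, 93.6% listed TRAJ9*01 alone, 1.26% TRAJ9*02 alone and 5.19% both. Of Traj2 sequences, 97.8% listed TRAJ2*01 alone, 0.608% TRAJ2*02 alone and 1.62% both. One allele of each segment therefore dominated in all 6 libraries.

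Among productive Traj9 sequences, TRAJ9*02 alone was listed in 0.241% of those in the WT and 1.69% of those in the SKG Trav9 library. In the whole Trav11 libraries the values were 0.316% (6 of 1897) and 2.12% (35 of 1652). In the whole Trav19 libraries they were 6.56% (17 of 259) and 0.0922% (1 of 1085). Among sequences whose V assignment was Trav19 alone they were 1.65% (4 of 243) and 0.0936% (1 of 1068). The direction between genotypes was thus not the same in each case, and the Trav19 counts are small. Among unproductive Traj9 sequences of the Trav9 libraries the values were 2.07% and 2.65%. For Traj2, TRAJ2*02 alone took 0.187% and 0.471% of productive and 1.20% and 1.40% of unproductive Traj2 sequences in the WT and SKG Trav9 libraries. Leaving out sequences that listed both alleles left each call on the combined share as it was.

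The usage pattern of each member over the 16 combinations of V gene and genotype was set against all other segments, by the mean absolute difference of their centred log2 shares. Nearest to Traj9 were Traj15 (0.342) and Traj13 (0.547), and nearest to Traj2 were Traj13 (0.265) and Traj16 (0.445). Traj6 and Traj4 were close to each other (0.396), and nearest to both was Traj17 (0.351 and 0.384). The median difference over the 43 segments ranked was 1.40 to 1.53 for the 4 members. Traj2 differed from Traj6 by 1.04 and from Traj4 by 0.953. On the log2 scale Traj2 lay furthest from both with Trav11. There it took 0.250% in WT and 0.328% in SKG, beside 5.92% and 6.64% for Traj6 and 5.04% and 6.60% for Traj4. The differences were not computed without Trav11, so whether the 4 segments share 1 pattern with the other V genes was not tested. The points share libraries and depth, and the values are a description.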

How the data were processed

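TCRα amplicons of 6 libraries were analysed, in groups that the labels give by amplicon and genotype. The labels name genomic DNA and also describe RNA and cDNA; the latter was followed. According to the methods, the authors obtained clonal sequences with MiXCR, used cutadapt 1.13 to trim primers, dropped exact duplicates and called genes by IMGT/HighV-QUEST. Each deposited list holds per sequence an identifier, a functionality class and the V and J genes. Identifiers are unitless, and counts were made here. Removing duplicates evens out abundant rearrangements, so shares are of neither reads nor cells. The submitters' notes name mm10; the lists hold no coordinates, and those printed are from NCBIM37 with GENCODE.

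The segments named are the 4 members, 2 fixed lists of neighbours, and the 2 segments most like each member (0.5 added to counts). Members and lists were chosen with earlier results of these data known. Sequences listing a TRDJ gene (12) were left out. For the spread factor, the productive share was fitted by logistic regression on segment and library (segments with 50 or more sequences in each), and Pearson's chi-square was divided by its degrees of freedom. The factor is too large where single segments truly changed in productive share, and too small where both classes hold sequences of 1 rearrangement. Quasi-binomial z tests were two-sided, over sequences, with Benjamini-Hochberg adjustment and a threshold of 0.05; Fisher's exact test was an alternative, with p set to at least 1e-300. Other alternatives were the functionality class, V, J and allele filters, denominator, segments summed, largest factor, fold and minimum. Calculations were tested on simulated data and made with scipy 1.17.1, statsmodels 0.14.6, pandas 2.3.3 and numpy 2.4.6 under Python 3.11.15; matplotlib 3.10.9 drew the figures.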

Additional observations from a re-analysis of the deposited data

Results flagged for a closer look

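The SKG minus WT difference of the terminal share was compared between V genes as a difference of log odds ratios over sequences. With Trav19 it exceeded that with Trav11 by 0.848 (SE 0.288, adjusted quasi-binomial p = 0.00488) and that with Trav9d-3 by 1.02 (SE 0.281, adjusted quasi-binomial p = 0.000842). Each value rests on 4 single libraries with no replicate in any arm, so the p compares these libraries and not the genotypes, and preparation and genotype cannot be told apart. Neither passed with Traj1 to Traj30 as the denominator (0.520 and 0.736).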

How the results depend on the processing

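No paired analysis was possible because each genotype and amplicon had 1 library. Values below are SKG minus WT differences of the combined share in points unless another quantity is named, and the cause of each change was not tested. In unproductive sequences Trav9d-2 and Trav9d-3 turned to -0.571 and -0.843, and Trav9-3, Trav9-4 and Trav19 kept their direction without a call (1.38, 0.784 and 1.05). With all classes Trav9d-3 was -0.241, and with genes listed also beside others Trav9d-3 was -0.000945 and Trav9d-4 0.0688. With Traj1 to Traj30 as denominator Trav9d-2, Trav9d-3 and Trav9-2 turned to -0.126, -2.09 and -4.13, and Trav9-3, Trav9-4 and Trav19 had no call (2.08, 3.35 and 10.9). Without Traj9 Trav9-2 and Trav11 passed (1.45 and 2.35). Without Traj6 Trav9d-3 was -0.235 and Trav9d-4 0.0629. Without Traj4 Trav9d-3 and Trav9-2 were -0.187 and -0.159, and Trav9-3 and Trav9-4 had no call (0.672 and 0.654). Without Traj2 Trav9d-3 and Trav9-2 were -0.133 and -0.0792, and Trav9-3 had no call (0.782). With the largest factor of any V gene, 99.8, Trav9-3 and Trav9-4 had no call (1.12 and 1.17), which follows from the larger SE. By Fisher's exact test Trav9d-2, Trav9d-4, Trav9-2 and Trav11 also passed (1.31, -0.798, 0.502 and 2.04). Another 73 of 104 values kept direction and call, Trav19 passing in all but the unproductive and the Traj1 to Traj30 setting.

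Of the share among Traj1 to Traj30, Trav11 turned to -0.368 in unproductive sequences and to -0.334 without Traj4, Trav9d-2 to 1.71 without Traj9 and 0.814 without Traj6, and Trav9-2 to 0.209 without Traj9. With all classes Trav9d-4 and Trav19 passed (-3.52 and 11.7). By Fisher's exact test the 7 that passed were Trav9d-3 (-2.09), Trav9d-4 (-3.42), Trav9-2 (-4.13), Trav9-3 (2.08), Trav9-4 (3.35), Trav11 (1.99) and Trav19 (10.9). With that denominator the larger changes with Trav19 than with Trav11 and Trav9d-3 were 0.520 and 0.736 without a call, the neighbour pairs past the threshold were 0 against 8, and 34 other values of changes between V genes were as before. Productive minus unproductive turned to 0.522 for WT Trav11 without Traj4, and 11 of 16 passed by Fisher's exact test. At a fold of 1.5, 6 members were higher and 1 lower, with no share of all segments given beside them.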
